A study of Mus musculus with 24 samples.

Results

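Cells of SIM-A9, a mouse microglial cell line, that had been given AAV for 2 h were compared with untreated cells of the same line. AAV stands for adeno-associated virus, a small non-enveloped virus widely used to carry genes into neurons and glia. The comparison rests on the 3 libraries labelled AAV and the 3 labelled Control, 6 of the 24 libraries of a study of neural probes in which every group had 3 libraries. Poly-A RNA was measured as raw read counts per gene, and 13116 of the 54838 genes in the table had enough counts to be tested. Only host genes were described.

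Both groups were SIM-A9 cells plated in 48-well plates and kept for 2 h in 270 uL of medium without serum. The AAV wells then received 30 uL of a sample at 10 times its final strength, and RNA was taken from the attached cells 2 h later. The Control wells are labelled as untreated. The serotype, cargo and dose of the AAV are not in the labels, and no group that received its buffer or empty capsids was analysed here. Total counts ran from 26276385 to 28971379 in the AAV libraries and from 18176305 to 23155577 in the Control libraries. Replicates of a group differed by more than counting noise, with a chi-square over genes, divided by its degrees of freedom, of 5.25 to 8.81 for AAV and 3.51 to 5.02 for Control. The labels do not say that replicates were separate cultures, so p-values measure the spread between these libraries, which may be technical. The column names carry a library number that is consecutive within each group; what it stands for is not given in the sources used here, and whatever it marks cannot be told apart from the treatment.

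The microglial label was checked against 14 markers, of which 13 passed the filter on low counts. Sall1, a transcription factor of brain microglia, was the exception, with at most 2 counts in any of the 6 libraries. Csf1r, the receptor for the growth factor that keeps macrophages alive, stood at 507, 553 and 518 CPM (read counts scaled to the size of the library) in AAV and at 485, 516 and 522 CPM in Control. The summed level of the 14 markers ran from 2605 to 2650.1 CPM in AAV and from 2582 to 2650.1 CPM in Control, so the groups overlapped. The homeostatic microglial genes Tmem119 and P2ry12 were low, at 3.28 to 4.59 and 1.71 to 2.82 CPM in the AAV libraries. All of 4 markers of neurons (Snap25, Syt1, Tubb3 and Stmn2), 3 of astrocytes (Aqp4, Aldh1l1 and Gja1) and 3 of oligodendrocytes (Mog, Olig1 and Olig2) had no counts in any of the 6 libraries. Of 6 endothelial markers, the receptor genes Kdr and Flt1 were present, and Cldn5 had no counts.

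An AAV particle carries a short genome of single-stranded DNA in a protein capsid. Cells take it up through cell-surface sugars such as heparan sulfate and the receptor AAVR, carry it from endosomes to the Golgi apparatus with the help of GPR108, and uncoat it in the nucleus. In innate immune cells the capsid can be sensed by the surface receptor TLR2, and unmethylated CpG DNA by TLR9 in endosomes, both of which signal through MyD88. DNA in the cytosol is sensed by cGAS and STING, and RNA by RIG-I and MDA5. These routes meet at NF-kB, which turns on inflammatory cytokines, and at the interferon regulatory factors, which turn on type I interferon and then the interferon-stimulated genes.

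Across all genes the difference between AAV and Control was small in size. A gene was called where its adjusted p was under 0.05 in edgeR's quasi-likelihood test with Benjamini-Hochberg adjustment over all 13116 genes. Of these, 656 genes were called, 5.00% of those tested: 241 were higher in AAV (1.84%) and 415 were lower (3.16%). The median size of the difference among called genes was 0.21 on the log2 scale, or 15.7%. In 644 of the 656 the libraries of the groups did not overlap, which held for 24.6% of all genes tested. Only 31 called genes differed by at least 0.5 on that scale, and 6 by at least 1, all 6 at low levels, such as Coro6, an actin-binding coronin, at 0.106 ± 0.0886 CPM in AAV against 0.438 ± 0.151 CPM in Control (SD, n = 3 each). Under other settings the balance of directions moved: upper-quartile scaling gave 179 higher and 502 lower, and DESeq2's test gave 439 higher and 447 lower. The count also rested on single libraries, since it was 183 without AAV replicate 2, 290 without AAV replicate 3, 304 without Control replicate 1 and 164 without Control replicate 3. In 105 genes, 84 of them lower in AAV and 21 higher, the call held whichever of the 6 libraries was left out.

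None of the sensing genes was called in the main fit. The list held 76 genes of Toll-like receptors, adaptors, cytosolic DNA and RNA sensors and the kinases and factors that induce interferon, and 71 of them were tested. In the main edgeR fit 0 of 71 were called, beside 5.00% of all genes. Of the 71, 8 had an unadjusted p under 0.05 (11.3%, beside 20.7% of all genes), and the smallest adjusted p was 0.0793. The median log2 fold change was 0.02 for the list and -0.00 for all genes, and members lay between -0.33 and 0.21. DESeq2's test called 1 member, Rela, the NF-kB subunit p65, at a log2 fold change of 0.13 with an adjusted p of 0.0499. In other settings edgeR called 1 member lower with only the 6 libraries fitted and 1 lower without the low-count filter. It called 1 higher without AAV replicate 1. With each library's length and GC trends removed it called 1 lower, and with the length trend alone removed 1 in each direction. The 5 members that were not tested had at most 5 counts in any of the 6 libraries, among them the DNA sensor Zbp1 with at most 3 and the DNA exonuclease Trex1 with none.

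Tlr9, the endosomal receptor for unmethylated CpG DNA, stood at 19.7, 22.2 and 23.7 CPM in the AAV libraries and at 17.7, 22.3 and 20.9 CPM in the Control libraries. The groups overlapped, and the log2 fold change was 0.10 ± 0.08 (SE), with a 95% interval of -0.07 to 0.27. Tlr2, the surface receptor linked to capsid sensing, stood at 269.8, 263 and 248 CPM in AAV and 276, 280.4 and 275 CPM in Control. Every AAV library was lower than every Control library, as in 12.5% of all genes tested, but the change of -0.09 ± 0.04 was not called (adjusted p 0.219). In the LPS libraries, which received the bacterial lipopolysaccharide that the series names as its positive control, Tlr2 stood at 773, 720.0 and 726 CPM. The adaptor Myd88 stood at 105, 109.8 and 103 CPM in AAV and 108, 110.1 and 111 CPM in Control, and the groups overlapped. Of the 15 receptors and their trafficking factors and the 15 adaptors and kinases, all of which were tested, none was called, 1 receptor and 3 adaptors or kinases had an unadjusted p under 0.05 (6.67% and 20%, beside the 20.7% of all genes), and the highest value was that of Tlr6, a partner of Tlr2, at 0.21 ± 0.12 with an adjusted p of 0.328.

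The intervals of the DNA sensor cGAS and of STING were narrower than that of Tlr9. Cgas, the enzyme that turns DNA binding into a cyclic dinucleotide signal, stood at 50.6, 46.3 and 46.3 CPM in AAV and 50.2, 48.003 and 47.5 CPM in Control, with a log2 fold change of -0.02 ± 0.05 and an interval of -0.13 to 0.08. Tmem173, which encodes STING, the receptor for that signal, stood at 93.6, 99.6 and 95.7 CPM in AAV and 95.6, 94.6 and 97.9 CPM in Control, with an interval of -0.08 to 0.09. Both genes overlapped between the groups, and these libraries do not exclude a change inside those intervals. Ddx58, which encodes the RNA sensor RIG-I, stood at 16.004, 15.4 and 14.7 CPM in AAV and 14.3, 14.6 and 13.9 CPM in Control, every AAV library being higher, and its interval of -0.11 to 0.32 included 0. Ifih1, which encodes MDA5, was scarce at 2.96, 2.81 and 2.29 CPM in AAV and 2.80, 3.11 and 2.83 CPM in Control, and its interval of -0.44 to 0.20 was the widest of the sensors named here. Of 19 DNA-sensing genes tested none was called and 3 had an unadjusted p under 0.05 (15.8%, beside 20.7% of all genes), and of 10 RNA-sensing genes none was called and none had an unadjusted p under 0.05.

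Among the 12 kinases and transcription factors that induce interferon, none was called and 1 had an unadjusted p under 0.05 (8.33%, beside 20.7% of all genes). Irf3, the factor that STING and RIG-I activate, stood at 28.7, 32.8 and 30.9 CPM in AAV and 34.01, 33.6 and 32.3 CPM in Control, a log2 fold change of -0.11 ± 0.06 (adjusted p 0.264). Irf7, which amplifies the interferon loop, stood at 20.9, 21.4 and 21.5 CPM in AAV and 18.7, 17.7 and 19.7 CPM in Control. All 3 AAV libraries of Irf7 were above all 3 Control libraries, as in 12.1% of all genes tested, but the change of 0.19 ± 0.10 had an adjusted p of 0.306. In the study's LPS libraries 36 of the same 71 genes were called against Control (26 higher, 10 lower), where 28.3% of all genes were called. Between AAV and LPS directly, 44 of the 71 were called, against 40.4% of all genes.

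**Figure D1:**
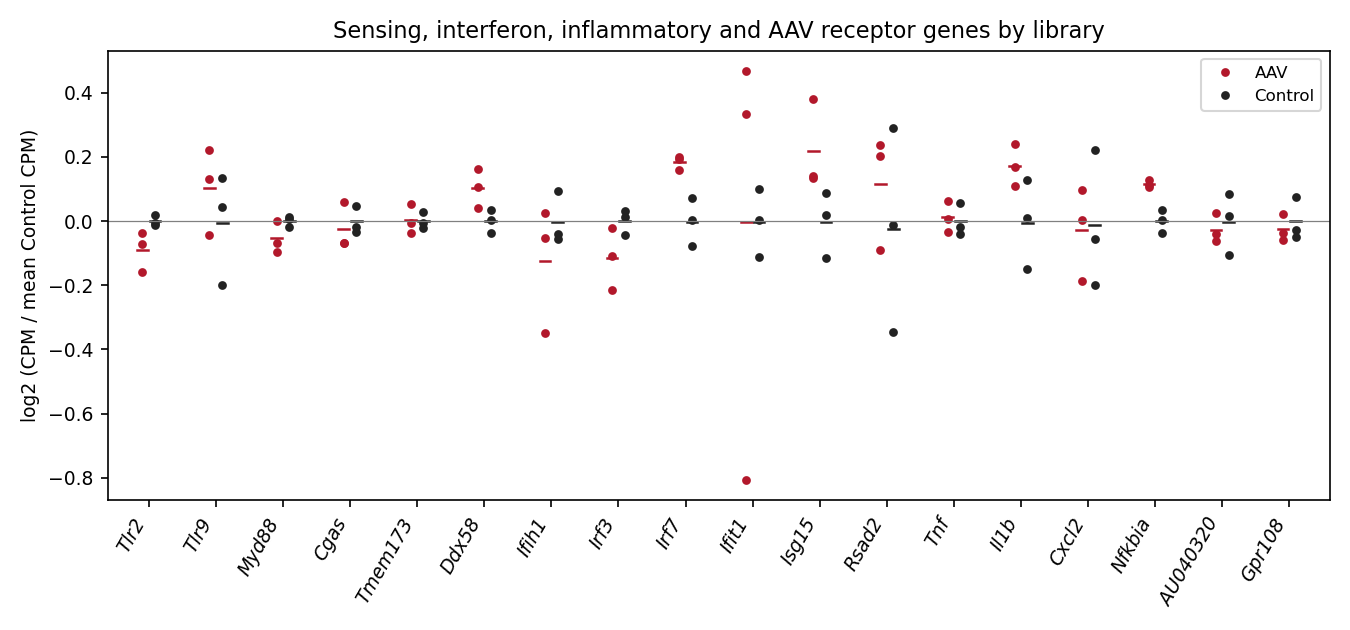
Level of 18 sensing, interferon, inflammatory and AAV receptor genes in each AAV library (red) and Control library (black), as log2 of CPM over the mean Control CPM of that gene; points are libraries and short bars group means. The points of Tlr9, Cgas, Tmem173, Tnf and Cxcl2 overlap between the groups, and the widest spread is that of Ifit1, which had between 0.762 and 1.84 CPM in the AAV libraries.

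Of 53 interferon genes listed, 48 were tested, and edgeR called 0 higher and 2 lower, beside 1.84% and 3.16% of all genes. By unadjusted p under 0.05 there were 7 members (14.6%, beside 20.7% of all genes), and the list's median log2 fold change was 0.01. DESeq2's test added Eif2ak2, the kinase PKR, at 0.19 (adjusted p 0.0277), and Oas1a, an oligoadenylate synthase, at -0.19 (adjusted p 0.0425). Ifnb1, the gene of interferon beta, had 2, 1 and 0 counts in the AAV libraries and 0, 0 and 1 in the Control libraries, at or under the 3 counts taken as the floor, so no fold is given. Its level was 0.543, 0.439 and 0.655 CPM in the LPS libraries. Ifna4 had no counts in any of the 6 libraries.

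Interferon-stimulated genes are recognised by a DNA element, the interferon-stimulated response element, to which the IRF and STAT complexes bind. The letters GAAANNGAA, the core of that element, searched on both strands in the 250 bases before the start of each gene, were found in 8.18% of the 27025 genes of the RefSeq promoter table (GRCm38.p6). They were found in 16 of the 30 interferon-stimulated effectors that were tested and are in that table (53.3%), in 11 of 59 sensing genes (18.6%), in 9.15% of the genes called lower and in 6.81% of those called higher. The 150 bases before the start of 3 of these effectors are shown because their levels are the readout of an interferon response in these cells. They run 5′ to 3′ on the strand of the gene, with matches to the core in capitals; a match on the other strand reads TTCNNTTTC. Neighbouring matches may overlap and are then capitals without a break. A match is a description and not a measured binding site.
Ifit1: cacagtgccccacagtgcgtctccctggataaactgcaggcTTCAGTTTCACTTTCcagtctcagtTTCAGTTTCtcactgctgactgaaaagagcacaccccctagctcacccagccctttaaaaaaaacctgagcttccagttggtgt
Isg15: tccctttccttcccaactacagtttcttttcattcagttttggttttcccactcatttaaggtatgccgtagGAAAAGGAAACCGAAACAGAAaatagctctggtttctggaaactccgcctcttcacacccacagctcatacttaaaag
Rsad2: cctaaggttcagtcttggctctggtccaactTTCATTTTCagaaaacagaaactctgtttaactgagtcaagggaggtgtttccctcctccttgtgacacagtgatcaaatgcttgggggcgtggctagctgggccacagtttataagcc

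These windows are chr19:34640739-34640888 on the forward strand for Ifit1, chr4:156200819-156200968 on the reverse strand for Isg15 and chr12:26456453-26456602 on the reverse strand for Rsad2. Ifit1, an RNA-binding antiviral protein, has 3 matches between 76 and 109 bases before its start. Isg15, a ubiquitin-like modifier, has 3 matches between 58 and 78 bases before its start. Rsad2, the antiviral enzyme viperin, has 1 match, 111 to 119 bases before its start.

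Ifit1 stood at 1.84, 1.68 and 0.762 CPM in the AAV libraries and at 1.43, 1.23 and 1.33 CPM in the Control libraries. AAV replicate 3 was below all Control libraries and the other AAV libraries were above them, and the interval of -0.40 to 0.63 on the log2 scale was wide at this level. Isg15 stood at 3.03, 3.60 and 3.05 CPM in AAV and 2.80, 2.55 and 2.94 CPM in Control. All AAV libraries of Isg15 were higher, but the change of 0.23 ± 0.18 was not called (adjusted p 0.483). Rsad2 stood at 10.3, 10.1 and 8.23 CPM in AAV and 10.7, 8.68 and 6.89 CPM in Control, and the groups overlapped. In the LPS libraries Isg15 stood at 8.97, 10.99 and 12.8 CPM and Rsad2 at 22.3, 26.9 and 29.8 CPM, above every AAV and Control library.

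In the main fit the only called members of the interferon list were lower in AAV. Some other edgeR settings also called 1 member higher, beside 2 or 3 lower. These were DESeq2's scaling, length and GC trends removed, no low-count filter, only the 6 libraries fitted and Control replicate 2 left out. Ifngr2, the signalling chain of the receptor for interferon gamma, fell from 145, 141 and 141 CPM in Control to 127, 125 and 128 CPM in AAV, a log2 fold change of -0.16 ± 0.04 (adjusted p 0.00962). The libraries of the groups did not overlap, and the call was lost without AAV replicate 2 or without Control replicate 1. Ifi27l2a, a small interferon-inducible gene, fell from 28.6, 25.1 and 29.7 CPM to 21.7, 20.4 and 22.6 CPM, a change of -0.36 ± 0.08 (adjusted p 0.00737). Its call was lost without AAV replicate 2 or without Control replicate 3.

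Of 39 cytokine, chemokine and NF-kB genes, 37 were tested and 1 was called, higher in AAV, where 1.84% of all genes were called higher. It was Ccl3, a chemokine that microglia release early after activation, at 382, 382 and 405 CPM in AAV and 358, 332 and 310.2 CPM in Control. The groups did not overlap, and the log2 fold change was 0.23 ± 0.07, or 16.9% (adjusted p 0.0379). The call was lost without AAV replicate 2 or 3 and without Control replicate 2 or 3, and in DESeq2's test (adjusted p 0.0566). With each library's length trend removed, edgeR called Ccl3 higher at 0.31 (adjusted p 0.00115). In the LPS libraries Ccl3 stood at 1472, 1766 and 1794 CPM. All 37 members were called higher against Control there, where 1809 of all 13116 genes were called higher.

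Tnf, an early cytokine of activated microglia, stood at 37.1, 34.7 and 35.7 CPM in AAV and 36.98, 35.1 and 34.6 CPM in Control, an overlap of the groups with an interval of -0.10 to 0.12 on the log2 scale. Its level was 1082, 1174 and 1176 CPM in the LPS libraries. Cxcl2, a neutrophil-attracting chemokine, stood at 13.9, 11.4 and 13.03 CPM in AAV and 15.2, 11.3 and 12.5 CPM in Control, against 1079, 1222 and 1223 CPM in LPS. The AAV and Control libraries of Cxcl2 overlapped. Il1b, the precursor gene of interleukin-1 beta, stood at 10.8, 9.84 and 10.2 CPM in AAV and 9.18, 9.96 and 8.22 CPM in Control, and AAV replicate 2 lay below the highest Control library.

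Nfkbia, which encodes the inhibitor that NF-kB induces to limit itself, stood at 122, 123 and 121 CPM in AAV and 110.0, 115 and 113 CPM in Control. All AAV libraries were higher, by 0.11 ± 0.05 on the log2 scale, but the gene was not called (adjusted p 0.155). With each library's trend on gene length removed, Nfkbia, Rela and Zfp36, an RNA-binding protein that shortens the life of cytokine mRNAs, were called higher, at 0.16, 0.14 and 0.19 on the log2 scale (adjusted p 0.0262, 0.0383 and 0.0433). With Ccl3, 4 of the 37 tested members were called higher in that fit and 0 lower, beside 2.13% and 3.82% of all genes. In this list 4 tested members were at or under the floor of 3 counts in all 6 libraries. The list's median log2 fold change was 0.01.

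A list of 54 genes covered AAV receptors and post-entry factors, heparan sulfate synthesis, endocytosis, transport from endosomes to the Golgi apparatus and proteases. Which of them this AAV uses is not in the labels, and 50 were tested. Of these, 3 were called higher (6%, beside 1.84% of all genes) and 3 lower (6%, beside 3.16%). AU040320, the mouse gene of the receptor AAVR, stood at 20.7, 21.97 and 20.996 CPM in AAV and 22.9, 21.8 and 20.1 CPM in Control, and Gpr108 at 48.6, 45.9 and 46.6 and 46.3, 50.4 and 46.9 CPM. Neither was called, both groups overlapped, and the intervals on the log2 scale were -0.16 to 0.11 and -0.12 to 0.07. Sdc3, a heparan sulfate proteoglycan of the cell surface, rose from 115, 124 and 118 CPM to 135, 145 and 148 CPM, a log2 fold change of 0.26 ± 0.05 (adjusted p 0.00186), and this call held whichever of the 6 libraries was left out. Sdc1, another surface heparan sulfate proteoglycan, fell from 114, 110.3 and 114 CPM to 104, 97.8 and 104 CPM, a change of -0.14 ± 0.04 (adjusted p 0.0383). The groups of both genes did not overlap, and the call of Sdc1 was lost without AAV replicate 2 or 3 and without Control replicate 1 or 3.

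Rac1, a small GTPase of membrane ruffling and uptake, rose to 360.3, 359.8 and 346 CPM from 329, 316 and 303 CPM, a log2 fold change of 0.17 ± 0.04 (adjusted p 0.00623). Furin, a Golgi protease, rose to 80.2, 83.6 and 77.5 CPM from 72.8, 71.3 and 69.95 CPM, a change of 0.17 ± 0.05 (adjusted p 0.025), and was not called once the length trend was removed (adjusted p 0.144). Vps29, a subunit of the retromer complex that carries cargo from endosomes to the Golgi apparatus, fell to 140.2, 131 and 146 CPM from 182, 157 and 169 CPM. Its change of -0.28 ± 0.06 (adjusted p 0.004) was called without each of the 6 libraries in turn, while its partner Vps35 was at -0.04 and was not called. Slc35b2, the Golgi transporter of the sulfate donor that heparan sulfate needs, fell to 81.03, 75.3 and 80.1 CPM from 87.2, 91.9 and 97.03 CPM, a change of -0.22 ± 0.05 (adjusted p 0.00675). Single libraries mattered for 3 of these genes: Rac1 lost its call without Control replicate 3, Furin without AAV replicate 2 or Control replicate 2 or 3, and Slc35b2 without AAV replicate 2 or Control replicate 3.

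Because an AAV genome has ends that DNA repair proteins can bind, 45 genes of the DNA damage response were examined, of which 41 were tested. Among these 2 were called (4.88%), close to the 5.00% of all genes. Pmaip1, the p53 target NOXA that promotes cell death, rose to 96.2, 90.2 and 91.4 CPM from 82.8, 80.4 and 81.4 CPM, a log2 fold change of 0.18 ± 0.05 (adjusted p 0.0177). Ei24, another p53-induced gene, fell to 58.8, 58.1 and 56.1 CPM from 66.6, 66.1 and 70.6 CPM, a change of -0.23 ± 0.05 (adjusted p 0.00791). The libraries of the groups did not overlap in either gene, and Pmaip1 lost its call without AAV replicate 1 or Control replicate 2 or 3, and Ei24 without AAV replicate 3 or Control replicate 3. The classical p53 targets Cdkn1a, a cell-cycle inhibitor, and Mdm2, the ligase that degrades p53, were not called, at 0.08 ± 0.05 and 0.04 ± 0.05. Cdkn1a stood at 68.3, 67.4 and 60.6 CPM in AAV and 64.95, 59.7 and 61.1 CPM in Control, and the groups overlapped. Of 20 genes of break sensing and repair, none was called and 4 had an unadjusted p under 0.05 (20%, beside 20.7% of all genes).

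**Figure D2:**
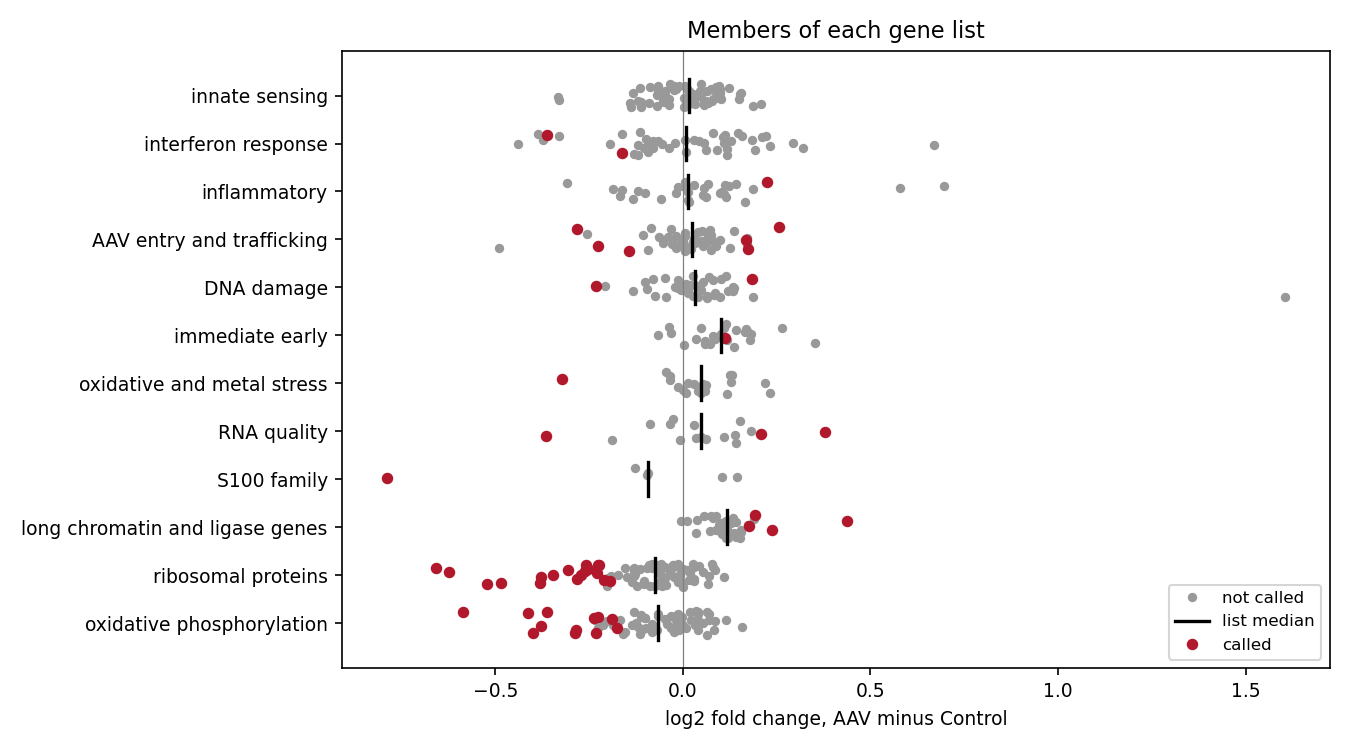
log2 fold change, AAV minus Control, of each member of 12 gene lists that passed the filter and was above the floor of 3 counts; red points were called, grey points were not, and black bars are list medians. The 71 sensing genes lie between -0.33 and 0.21 with no red point, while the 18 called ribosomal proteins and the 12 called oxidative phosphorylation genes all lie below 0.

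The 12 named genes that fell most held 4 cytosolic ribosomal proteins and 1 subunit of the respiratory chain. The 12 lowest were taken among called protein-coding genes with a mean of at least 5 CPM and no overlap between the groups, as were the 12 highest. S100a4 (ENSMUSG00000001020.8, chr3:90603771-90606045), a calcium-binding protein linked to cell motility, fell from 12.97, 10.9 and 10.9 CPM to 7.23, 5.86 and 7.01 CPM. Its log2 fold change was -0.79 ± 0.13 (adjusted p 0.000323), a fall of 42.1%, and the call held whichever of the 6 libraries was left out, with adjusted p up to 0.00835. Its exons overlap those of a predicted gene, Gm42674, on the same strand, so its reads may be shared. Of 11 genes of its family 6 were tested, and S100a4 was the only one called (16.7%, beside 5.00% of all genes). S100a10 was at -0.13 ± 0.06 and S100a11 at 0.14 ± 0.05. With each library's trend on gene length removed, S100a11 was called higher, at 0.26 (adjusted p 0.00281).

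Ribosomal protein genes were called in 1 direction: 18 of 81 tested members fell, 22.2% of the list against 3.16% of all genes, and 0 higher. Rpl22l1, a paralogue of Rpl22, fell from 53.1, 41.8 and 49.2 CPM to 34.3, 28.7 and 28.01 CPM, a log2 fold change of -0.66 ± 0.09 (adjusted p 7.46e-05). Rpl39, a small protein of the large subunit, fell from 855, 738 and 833 CPM to 620.2, 508 and 560.5 CPM, a change of -0.52 ± 0.07 (adjusted p 4.03e-05). Rps27a, which encodes a fusion of ubiquitin and a small-subunit protein, fell from 1847, 1641 and 1865 CPM to 1333, 1180.1 and 1311 CPM, a change of -0.49 ± 0.07 (adjusted p 4.03e-05). In these 3 genes every AAV library was below every Control library, and the calls held whichever of the 6 libraries was left out. Rps10 fell from 8.08, 6.26 and 7.05 CPM to 4.73, 4.76 and 4.27 CPM, -0.62 ± 0.15 (adjusted p 0.0106), but its call was lost without AAV replicate 3 or Control replicate 1 or 3, and its exons overlap those of a read-through gene.

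The other called members, with Rps14 at -0.38, Rpl22 at -0.38 and Rps7 at -0.35 foremost, lay between -0.38 and -0.19. In the whole list 65 of 81 members were below 0 and the median was -0.07, against -0.00 for all genes. The 18 calls became 9 without AAV replicate 2, 10 without Control replicate 1 and 9 without Control replicate 3, and 29 when only the 6 libraries were fitted. Ribosomal proteins have many processed pseudogenes of near-identical sequence, and how reads with several matches were counted is not given in the sources used here, so their levels are uncertain. Of the 12 processed pseudogenes among all called genes 10 were lower, where 415 of all 656 called genes were lower. An example is Rpl31-ps8, at 4.70, 4.39 and 5.07 CPM in AAV and 7.80, 8.09 and 10.1 CPM in Control.

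Nuclear genes of oxidative phosphorylation, the respiratory chain and the ATP synthase of mitochondria, were called in the same direction. Of 72 tested, 12 were lower (16.7%, beside 3.16% of all genes) and 0 higher (beside 1.84%). Cox6c, a subunit of cytochrome c oxidase, fell from 412, 377 and 424 CPM to 328, 274 and 309.6 CPM, a log2 fold change of -0.41 ± 0.06 (adjusted p 0.000163). Ndufb4, a subunit of complex I, fell from 62.4, 62.8 and 65.1 CPM to 48.5, 47.3 and 48.5 CPM, a change of -0.40 ± 0.06 (adjusted p 0.000111). Cox7a2, also of cytochrome c oxidase, fell from 309, 280.3 and 307 CPM to 243, 214 and 232 CPM, a change of -0.38 ± 0.06 (adjusted p 0.000399). The groups of these 3 genes did not overlap and their calls held whichever of the 6 libraries was left out. Ndufb2, of complex I, fell by 0.58 on that scale, from 7.25, 6.72 and 7.42 CPM to 5.74, 4.25 and 4.23 CPM, but shares exon sequence with Gm42420 and lost its call without AAV replicate 2 or 3 or Control replicate 3. The 12 calls became 4 without AAV replicate 2, 6 without AAV replicate 3, 7 without Control replicate 1 and 5 without Control replicate 3.

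Polr2k, Med21 and Mrps18c were also among the 12 lowest. Polr2k, a small subunit shared by the RNA polymerases, fell from 51.9, 43.9 and 52.8 CPM to 36.2, 30.7 and 33.4 CPM, a log2 fold change of -0.56 ± 0.08 (adjusted p 9.24e-05). Med21, a subunit of the Mediator complex, fell from 28.7, 27.7 and 34.5 CPM to 22.98, 18.1 and 20.2 CPM, a change of -0.57 ± 0.09 (adjusted p 0.000281). Both calls held whichever of the 6 libraries was left out. Mrps18c, a protein of the mitochondrial ribosome, fell by 0.60, from 15.9, 12.98 and 13.9 CPM to 10.2, 8.47 and 9.56 CPM, lost its call without AAV replicate 2 or Control replicate 1, and shares exon sequence with Gm43511. 1810022K09Rik (chr3:14606284-14611285), whose exons overlap those of E2f5 on the other strand, had the smallest adjusted p of all genes, 1.52e-06, at 66.9, 59.2 and 58.7 CPM in AAV and 100.1, 86.4 and 99.4 CPM in Control. Because the strand setting of the counts is not given in the sources used here, reads of E2f5 cannot be told apart from its own. The same limit holds for other genes named here whose exons overlap a gene on the other strand, among them Rpl22l1, Rps27a, Med21, Cox6c, Vps29, Rac1, Furin, Sdc3, Ei24, Tenm4, Rfx5 and Dop1b.

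Lilrb4a, an inhibitory receptor of myeloid cells, also ranked among the 12 lowest. It fell from 45.8, 36.9 and 39.2 CPM to 30.8, 26.6 and 28.7 CPM, a log2 fold change of -0.50 ± 0.11 (adjusted p 0.00494), and the call was lost without Control replicate 1. Its exons overlap those of Gm49339 on the same strand, so its reads may be shared. In the LPS libraries Lilrb4a stood at 149.6, 117 and 102 CPM. Trem2, a microglial receptor for lipids, also fell, from 164, 163 and 176 CPM to 149.8, 145 and 152 CPM, a change of -0.17 (adjusted p 0.0173). Of the 13 microglial markers tested Trem2 was the 1 called, where 5.00% of all genes were called. Gm14295, a predicted gene, stood at 6.18, 5.31 and 4.53 CPM in AAV and 6.65, 8.09 and 7.85 CPM in Control, and its call was lost without AAV replicate 2 or 3 or Control replicate 2 or 3.

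The 12 highest named genes rose less, by 0.29 to 0.44 on the log2 scale. Zbtb4 (ENSMUSG00000018750.14, chr11:69765912-69784023), a zinc finger repressor that binds methylated DNA, rose from 8.08, 7.45 and 7.96 CPM to 10.5, 10.5 and 10.8 CPM, a change of 0.44 ± 0.09 (adjusted p 0.00494). The groups did not overlap, and Zbtb4 was the only one of the 12 whose call held whichever of the 6 libraries was left out (adjusted p up to 0.0298). Apold1, an early-response gene first described in endothelial cells, rose from 11.6, 12.5 and 13.4 CPM to 16.3, 16.3 and 15.5 CPM, a change of 0.36 ± 0.09 (adjusted p 0.0112), and lost its call without AAV replicate 2 or Control replicate 1. In the LPS libraries Apold1 stood at 32.01, 35.7 and 36.2 CPM. Chst12, a sulfotransferase of chondroitin sulfate, rose from 24.1, 26.6 and 24.2 CPM to 28.7, 30.3 and 33.5 CPM, a change of 0.30 ± 0.07 (adjusted p 0.00996). It lost its call without AAV replicate 3 or Control replicate 1 or 3.

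Rfx5, a transcription factor of MHC class II genes, rose from 14.6, 13.9 and 14.3 CPM to 17.7, 17.9 and 16.96 CPM, 0.30 ± 0.07 on the log2 scale (adjusted p 0.0161). Tenm4, a very large transmembrane protein, rose from 8.13, 7.45 and 6.94 CPM to 9.54, 9.70 and 10.6 CPM, 0.40 ± 0.10 (adjusted p 0.0171), and was not called with the length trend removed (adjusted p 0.0565). The calls of Rfx5 and Tenm4 each held without 3 of the 6 libraries, taken singly. The other 7 were Zc3h11a at 0.43, Zfp362 at 0.38, Ap5s1 at 0.37, Dop1b at 0.32, Tfdp2 at 0.31, Dmpk at 0.30 and Ppp1r3b at 0.29. Their adjusted p-values lay between 0.0221 and 0.0491, and leaving out a library ended each call in at least 4 of 6 cases. Zc3h11a shares exons with other annotated genes, among them Zbed6, so its counts are uncertain.

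**Figure D3:**
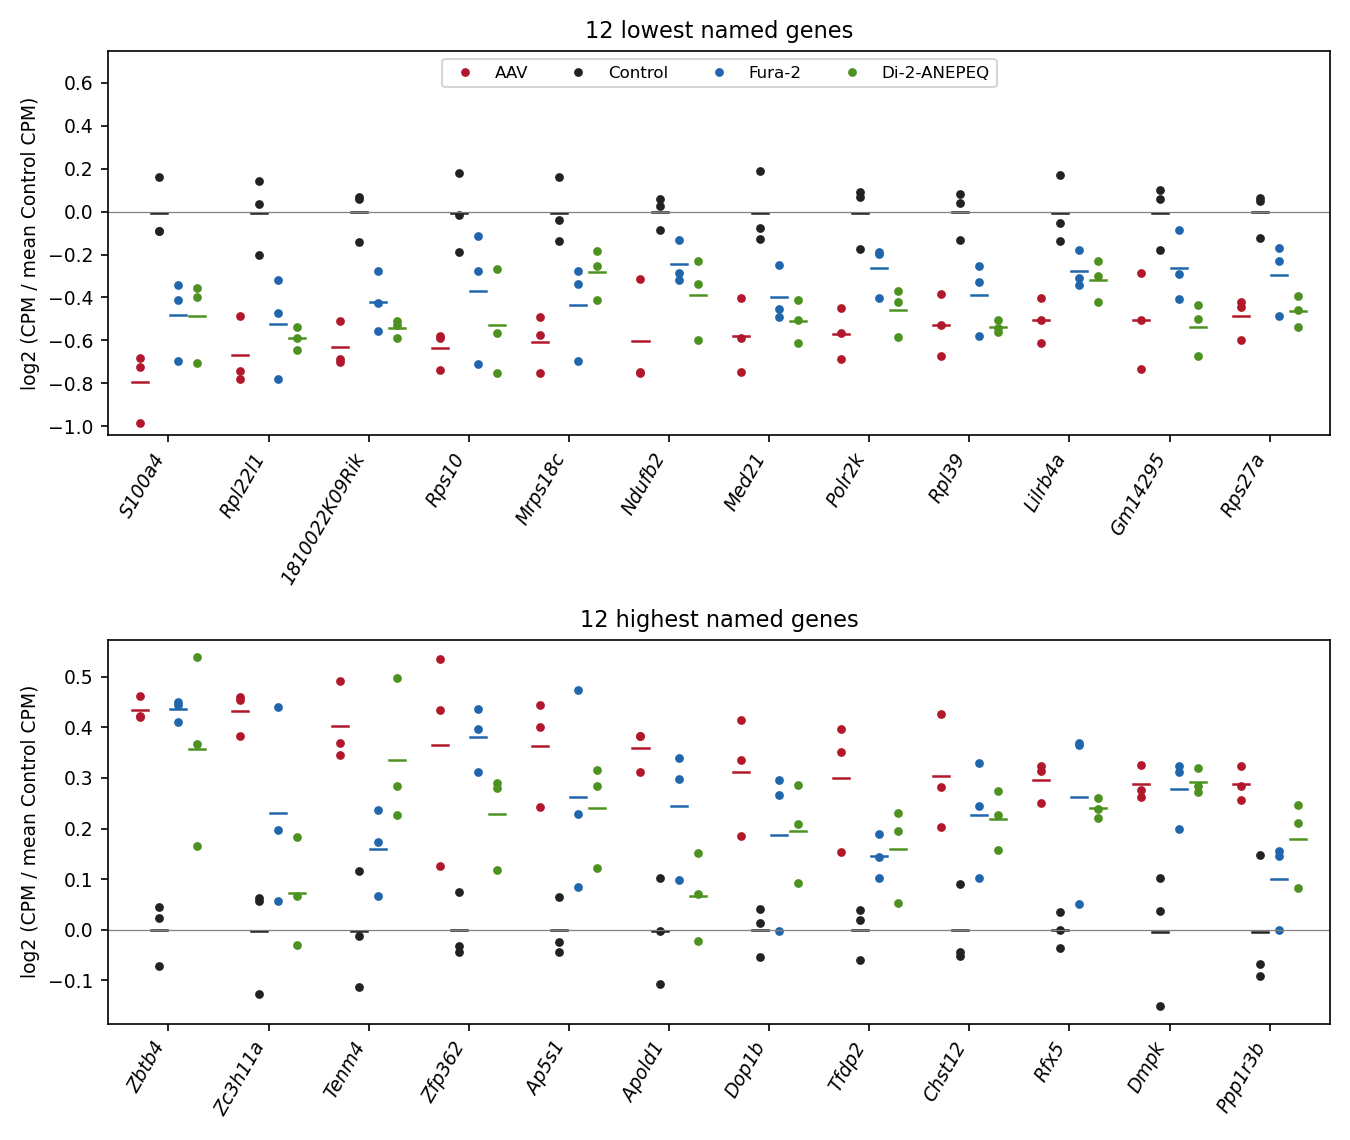
The 12 lowest (top) and 12 highest (bottom) named genes in each AAV, Control, Fura-2 and Di-2-ANEPEQ library, as log2 of CPM over the mean Control CPM; points are libraries and short bars group means. AAV points (red) lie apart from Control points (black) in all 24 genes, as the choice of genes required, and the Fura-2 (blue) and Di-2-ANEPEQ (green) points mostly lie on the AAV side of the Control mean.

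Long genes of chromatin and protein turnover were mostly on the higher side. Of 38 listed, chosen with earlier results of these data known, 4 were called higher (10.5%, against 1.84% of all genes) and 0 lower, 37 of 38 were above 0, and the median log2 fold change was 0.12. Besides Zbtb4 these were Crebbp, a histone acetyltransferase, and the chromatin remodellers Chd2 and Chd7. Crebbp rose from 50.2, 54.2 and 50.7 CPM to 61.02, 62.96 and 58.95 CPM, a change of 0.24 ± 0.05 (adjusted p 0.00737). Chd2 rose from 54.3, 55.6 and 55.4 CPM to 63.7, 61.4 and 63.9 CPM, 0.19 ± 0.05 (adjusted p 0.0314), and Chd7 rose by 0.18 ± 0.05 (adjusted p 0.0333). The groups did not overlap in these genes, but Crebbp lost its call without AAV replicate 2 or Control replicate 3, Chd2 whichever library was left out, and Chd7 without AAV replicate 2 or 3 or Control replicate 1 or 3. The exons of Chd2 overlap those of 1810026B05Rik on the same strand, so its reads may be shared. The list's median exon length was 16237 bases, against 4013 for all genes tested. In the longest of 5 equal classes of exon length, from 7102 bases, 3.62% of genes were called higher and 0.80% lower. The median log2 fold change of that class was 0.05. With the length trend removed the list's median was 0.04, and Crebbp and Zbtb4 remained called, at 0.16 and 0.39.

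The differences followed gene length. Genes were put in 5 classes of equal size by exon length. In the class of the shortest, up to 1989 bases of exon, the median log2 fold change was -0.07, with 17 genes called higher and 117 lower. In the class of the longest, from 7102 bases, it was 0.05, with 95 called higher and 21 lower. The classes between stepped from -0.03 through -0.01 to 0.01, and their calls from 23 higher and 130 lower to 59 higher and 60 lower. The median exon length was 6065 bases for genes called higher, 2859 for genes called lower and 4037 for the rest. Across 13112 genes, which are not independent replicates, the rank correlation of exon length with the log2 fold change was 0.241, and it was 0.0103 for GC content.

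A length trend is a property of a library, so it was also measured in each library on its own, as the Spearman rho between exon length and the gene's log2 CPM relative to its mean over all 24 libraries. It was 0.0798, 0.233 and 0.122 in the AAV libraries and -0.160, -0.00922 and -0.143 in the Control libraries. All AAV libraries were above all Control libraries, and the group means differed by 0.249. The exact two-sided permutation test gave p = 0.1, the smallest that 3 against 3 libraries allow. Libraries of other groups covered the same range, from -0.186 to 0.184 within the Fura-2 group alone and from 0.0866 to 0.294 in the COOH SWCNT group, which received carboxylated carbon nanotubes. The total counts of the AAV libraries were above those of the Control libraries without overlap, and the part of depth in the trend was not tested.

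When each library's length trend was removed before the fit, 781 genes were called, 280 higher (2.13%) and 501 lower (3.82%), and 517 of the 656 genes remained called. The class of the longest genes then held 26 higher and 89 lower, and that of the shortest 82 higher and 86 lower. Of the ribosomal proteins 18 were lower and 2 higher in that fit, and 13 oxidative phosphorylation genes were lower and 1 higher. The 12 lowest named genes remained called, for example S100a4 at -0.68 (adjusted p 0.000436) and Rpl39 at -0.47 (adjusted p 8.6e-07). Of the 12 highest, Tenm4 at 0.31, Tfdp2 at 0.23 and Ppp1r3b at 0.26 were no longer called (adjusted p 0.0565, 0.0875 and 0.0507), where the fit with the trend had 0.40, 0.31 and 0.29. Among sensing genes Rela was then called higher and Ikbkg, the regulatory subunit NEMO of the NF-kB kinase, lower, at -0.19 (adjusted p 0.0167).

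**Figure D4:**
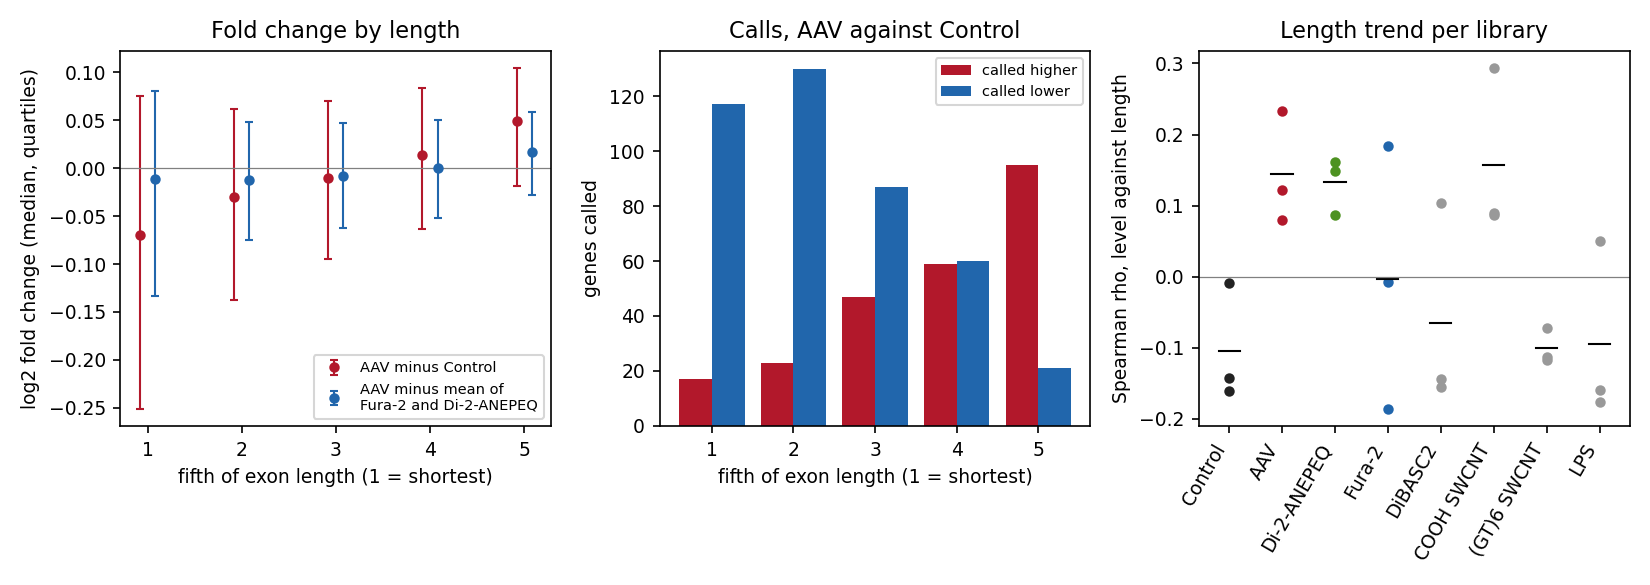
Gene length in the comparison. Left, median log2 fold change in 5 classes of exon length (1 the shortest) with bars from the lower to the upper quartile of genes, for AAV minus Control (red) and AAV minus the mean of Fura-2 and Di-2-ANEPEQ (blue); middle, genes called higher (red) and lower (blue) in AAV against Control; right, Spearman rho of level against exon length in each library, with group means as bars. The median against Control steps from -0.07 to 0.05 across the classes, and the rho of the AAV libraries lies between 0.0798 and 0.233.

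Of 17 genes tied to RNA quality that were tested, 3 were called (17.6%, beside 5.00% of all genes). Neat1, a long noncoding RNA kept in nuclear paraspeckles, fell from 71.2, 65.8 and 59.5 CPM to 48.9, 50.97 and 52.9 CPM, a log2 fold change of -0.36 ± 0.08 (adjusted p 0.00552), and lost its call without Control replicate 1. Malat1, another nuclear RNA, stood at 311, 247 and 333 CPM in AAV and 294, 299.5 and 313 CPM in Control and was not called. Of 13 genes tested that mitochondria encode, 2 were called higher (15.4%, beside 1.84% of all genes), mt-Nd4 and mt-Nd6. In AAV mt-Nd4 stood at 977, 925 and 963 CPM, against 877, 794 and 807 CPM in Control (0.21 ± 0.06, adjusted p 0.0346). For mt-Nd6 the values were 355, 216 and 287 CPM against 252, 189.8 and 218 CPM (0.38 ± 0.11, adjusted p 0.0321). The libraries overlapped in mt-Nd6, which lies opposite mt-Nd5 on the other strand. Leaving out a library ended each of these calls in at least 4 of 6 cases. The part of RNA quality in the falls of the ribosomal and respiratory genes was not tested. In bulk RNA, fewer cells and less RNA per cell cannot be told apart.

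The Control libraries can be set aside by comparing AAV with the mean of Fura-2 and Di-2-ANEPEQ, a calcium dye and a voltage dye given to the same line for the same time. In that comparison edgeR called 0 of 13116 genes (0.00%), 1447 had an unadjusted p under 0.05, and the smallest adjusted p was 0.0759. The median standard error was 0.0587, against 0.0696 for AAV against Control. DESeq2's test called 39 genes, edgeR without a low-count filter 76, and edgeR with the length trend removed 17. S100a4 stood at 8.71, 9.15 and 7.16 CPM in Fura-2 and 8.78, 9.06 and 7.11 CPM in Di-2-ANEPEQ, with an AAV minus dye log2 fold change of -0.31 and a 95% interval of -0.55 to -0.08. Rps27a stood at 1588, 1523 and 1274 CPM in Fura-2 and 1357, 1231 and 1301 CPM in Di-2-ANEPEQ, with an interval of -0.23 to 0.00. Zbtb4 stood at 10.4, 10.7 and 10.7 CPM in Fura-2 and 8.78, 10.1 and 11.4 CPM in Di-2-ANEPEQ, with an interval of -0.11 to 0.19. The AAV libraries of S100a4 all lay below the Control libraries and those of Zbtb4 all above, while the libraries of AAV and the dyes overlapped in all 3 genes.

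Against the dyes, the ribosomal list had a median log2 difference of 0.01 and the oxidative phosphorylation list one of -0.00, where against Control they had -0.07 and -0.07. The sensing list had a median of 0.02, the interferon list 0.02 and the inflammatory list 0.05, and none of their members was called. Ccl3 stood at 370.4, 332 and 337 CPM in Fura-2 and 367, 315 and 309.7 CPM in Di-2-ANEPEQ, below every AAV library, with a difference of 0.20 and an interval of 0.09 to 0.32 (adjusted p 0.2). Pmaip1 stood at 83.9, 83.9 and 87.2 CPM in Fura-2 and 79.5, 77.5 and 81.1 CPM in Di-2-ANEPEQ, also below every AAV library, with a difference of 0.17 and an interval of 0.09 to 0.25 (adjusted p 0.0853). The smallest adjusted p was that of mt-Nd4, at 0.26 with an interval of 0.16 to 0.37. The 13 tested genes that mitochondria encode had a median of 0.23 against the dyes, where against Control they had 0.06. Against the dyes 0 of them were called.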

How the data were processed

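Poly-A RNA of SIM-A9 cells was sequenced in 24 libraries, 3 in each of 8 groups. The authors deposited raw counts of reads for each gene, in a column per library, and all columns were matched to samples by name. STAR 2.5.4b and the build GRCm38.p6 are named in the submitters' processing notes. The counting tool, the annotation release, the use of strand and the treatment of multiply matching reads are not given in the sources used here. Every row of the table is a gene. Symbols, lengths and positions came from GENCODE M21 (GRCm38): 53947 identifiers matched with their version, 54809 without it and 29 not at all.

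The analysis used edgeR 4.0.16 in R 4.3.3: filterByExpr, TMM factors and 1 quasi-likelihood fit (glmQLFit, glmQLFTest, two-sided) with a mean per group over all 24 libraries, which leaves 16 residual degrees of freedom. The biological coefficient of variation was 4.12%. The contrasts were AAV minus Control and AAV minus the mean of Fura-2 and Di-2-ANEPEQ, and calls used a Benjamini-Hochberg adjusted p under 0.05. CPM used the TMM factors, SE is the log2 fold change over the square root of its F statistic, and intervals are 95%. Gene lists are described by counts and medians, with no set test. The scripts were tested on simulated data.

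Named genes were the 12 highest and 12 lowest protein-coding genes among those called, with a mean of at least 5 CPM and no overlap between groups, a fixed set of sensing, interferon, inflammatory, receptor and RNA-quality genes, and up to 4 called members of each list in each direction. Coro6, Rpl31-ps8, Trem2, Flt1 and list members called only in another setting were named after their values were seen. The members and lists were chosen with earlier results of these data known. Promoter sequences are RefSeq's (GRCm38.p6). Alternatives were other scalings (DESeq2 1.42.0 size factors, upper quartile), other filters (none, or a mean of at least 50 counts), DESeq2's test, the 6 libraries alone, a replicate block, removal of each library's length or length and GC trends by offsets, and leaving out each library.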

Additional observations from a re-analysis of the deposited data

How the results depend on the processing

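Of 656 called genes, the count stayed within 1.5 times of that in the settings that kept all 6 libraries (580 to 886), and ranged from 164 to 776 when a library was left out (higher, 44 to 342; lower, 120 to 434). The share called higher was 36.7%, 26.3% with upper-quartile factors and 49.5% in DESeq2's test, which called 439 higher. AAV against the dyes gave 0 genes, 39 in DESeq2's test, 17 with the length trend removed, 76 without the filter, 1 against Fura-2 alone, 8 against Di-2-ANEPEQ alone, and 0 to 2 without an AAV library; DESeq2 and the single dyes were added after seeing the data. The difference in length trend ranged from 0.205 to 0.297 without a library; coding length gave 0.266 with overlapping groups (exact permutation p = 0.2).

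Of 46 called named genes, 0 changed sign, 34 kept their call in every setting with all 6 libraries and 14 in all settings run. Genes that were not called changed sign near 0: Tmem173 was at -0.0013 with at least 50 counts and -0.0050 with upper-quartile factors, and Cxcl2 at 0.0193 with the length trend removed and 0.0304 with the GC trend removed too. Without a library, values ran from -0.0676 to 0.0023 for Cgas, -0.0199 to 0.0256 for Tmem173, -0.0989 to 0.412 for Ifit1, -0.0077 to 0.284 for Rsad2, -0.0733 to 0.0153 for AU040320, -0.0517 to 0.0129 for Gpr108, -0.0124 to 0.0408 for Tnf, -0.114 to 0.106 for Cxcl2 and -0.111 to 0.0912 for Malat1. The cause of these changes was not tested.

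Same-numbered AAV and Control libraries deviated together with correlations of 0.166, 0.224 and 0.0976, the last below the 0.1 asked of every pair, and the labels name nothing shared, so the numbers were not taken as pairs. Libraries of different numbers had correlations of -0.179 to -0.00559, and each AAV library correlated best with the Control library of its own number, a hint from the data and not the design. With the replicate block 580 genes were called, 201 higher and 379 lower, 568 of them among the 656. Ap5s1, Dmpk, Sdc1 and Klf6 lost their call. The length trend differed by 0.240, 0.242 and 0.265 within the numbers, a mean of 0.249.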

Other observations

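Immediate-early genes, the transcription factors and phosphatases that cells switch on first after a stimulus, were examined because RNA was taken at 2 h. Of 30 listed, 27 were tested, 24 were above 0, and the median log2 fold change was 0.10, against -0.00 for all genes. The 1 called member (3.70%, beside 5.00% of all genes) was Klf6, a zinc finger factor of activated macrophages, at 184, 186 and 184 CPM in AAV and 169, 175 and 169 CPM in Control, a change of 0.11 ± 0.03 (adjusted p 0.0471). It lost its call without AAV replicate 1, 2 or 3 and without Control replicate 1 or 3. Fos, at 0.09 ± 0.09, and Jun, at 0.12 ± 0.05, were not called, and Egr1 had at most 2 counts in any of the 6 libraries. With the length trend removed, Ier3 and Jund were called higher as well.

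Of 21 genes of oxidative and metal stress, all tested, 1 was called (4.76%), close to the 5.00% of all genes. It was Prdx1, a peroxidase that removes hydrogen peroxide, which fell from 1194, 1038 and 1113 CPM to 934, 852 and 888 CPM, a log2 fold change of -0.32 ± 0.06 (adjusted p 0.00235), a call that held whichever of the 6 libraries was left out. The metallothionein genes Mt1 and Mt2, which bind zinc and copper, were at 0.22 ± 0.07 and 0.23 ± 0.07 and were not called (adjusted p 0.0557 and 0.0592). With the length trend removed both were called higher, at 0.28 and 0.34 (adjusted p 0.00487 and 0.00189). Hmox1, the heme oxygenase that NRF2 induces, was at 0.06 ± 0.06 with an interval of -0.05 to 0.18. Flt1, a receptor for vascular growth factors listed among the endothelial markers, rose by 0.16 (adjusted p 0.0254), at 191, 203 and 197 CPM in AAV and 172, 182 and 174 CPM in Control.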
